A study of Mus musculus with 22 samples.

Results

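Antioxidant defence was followed through 40 genes that make and recycle glutathione, run the thioredoxin and peroxiredoxin system, remove superoxide and peroxides, conjugate electrophiles or regulate these steps. Members were chosen by gene symbol for their function, and each gene is read from 1 probe set, the brightest on average over all 22 arrays, passing over sets prone to cross-hybridization if there was a choice. Of the 40 genes, 36 had a probe set of their own, out of 18193 genes on the array. Prdx1 was listed only on probe sets shared with a predicted gene and has no value, and Prdx5, Prdx6 and G6pdx were not analysed here.

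The antibody-treated group was 3 samples of A2C12 cells kept with a monoclonal antibody against mouse EpCAM at 100 µg/ml for 48 h and then sorted for their side population, the fraction that pumps out the dye Hoechst 33342. The untreated group was 3 samples of side population cells from the same line without the antibody. Both were set against lung tissue of 16 non-transgenic mice, 8 labelled male and 8 labelled female, taken here as a pool. All samples have the C57BL/6 background. A2C12 is a lung tumour line derived from the c-myc and c-raf double-transgenic mouse model, so its samples are preparations of 1 line and not separate tumours, and their spread may be technical. Unsorted A2C12 cells were not analysed here, so the dye-excluding fraction and the line cannot be told apart.

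The arrays measured transcripts as intensities, on a scale that carries no read depth, with precision limited by how many arrays there are. The labelled line was checked against marker genes. All 6 epithelial markers were lower in both cell groups than in lung (summed intensity 408 to 634 with antibody and 359.9 to 534 without, against 10290.5 to 21303 in lung), and Epcam itself lay under 16 on every cell array. All 5 club cell markers were lower (summed intensity 53.8 to 69.5 and 23.4 to 51.4, against 34853 to 44663 in lung), as were the measured alveolar, ciliated, endothelial, macrophage, neutrophil, lymphocyte and red blood cell markers that were tested. Most mesenchymal markers were lower as well, though the sums of these lists fell less than those of the lists above. Of 5 fibroblast markers 3 were lower and Col1a1 was higher (summed intensity 4686 to 7286 and 5319 to 6779, against 9443 to 15704 in lung), with Tcf21 under 16 on every cell array. Of 5 smooth muscle and mesothelium markers 3 were lower in antibody-treated and 4 in untreated cells (3744 to 5137 and 3093 to 4986, against 5573 to 11709 in lung), and Acta2 made up most of the sum in the cells. Myh11 and Upk3b lay under 16 on every cell array. All 5 proliferation markers were higher (5987 to 13142 and 9149 to 12474, against 238 to 1090.1 in lung). The part of this cell make-up in the differences below was not tested. Dap, a control RNA added before labelling, read 438 to 761 in cell samples against 3.70 or less in every lung, so effects of labelling and of tissue cannot be told apart here. On the lung arrays labelled male 3 and male 4, Xist read 1512 and 1583 and Uty 8.27 and 9.46, against Xist of at most 24.0 and Uty of at least 722 on the other 6 arrays labelled male. These arrays were kept as lung, and results that change without them are given with both values.

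Cells hold oxidants in check with a glutathione and a thioredoxin system. Glutathione, a small thiol, feeds the glutathione peroxidases and transferases, and thioredoxin, a small protein, feeds the peroxiredoxins. Both are kept reduced with electrons from NADPH. The transcription factor NRF2, encoded by Nfe2l2, is held at low protein level by KEAP1 and raises many of these genes when oxidants or electrophiles modify KEAP1. In lung the secreted enzymes SOD3 and GPX3 act outside cells, and glutathione transferases are abundant in airway epithelium.

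Levels below are deposited intensities per array, given for the 3 samples of each cell group in order of replicate number, and as the lowest, median and highest of the 16 lungs. Differences are on the scale of log2(intensity + 16) after quantile normalization, with the standard error (SE) of the limma model and two-sided p-values adjusted by the Benjamini-Hochberg method over all genes tested. A difference from lung was called where the adjusted p lay under 0.05 and the change was at least 2-fold. The added 16 makes folds of faint genes smaller. The comparisons of the 2 cell groups with lung share the 16 lung arrays and are not independent of each other.

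Against lung, the antioxidant genes went both ways, in close to the proportions of the whole array. In antibody-treated cells 8 of the 36 members were called higher and 11 lower (22.2% and 30.6%), where 18.9% and 25.6% of all 12837 genes tested were called. In untreated cells 9 were higher and 10 lower (25% and 27.8%), where 19.6% and 25.4% of all 12911 genes tested were called. The median log2 difference over the members was 0.10 in both, beside 0.00 over all genes for antibody-treated cells and 0.03 for untreated cells. On the adjusted p alone, 31 of 36 members differed from lung in antibody-treated cells, beside 83.0% of all genes, and 31 of 36 in untreated cells, beside 83.5%. The members' shares are near the background. Of the lower members, Gpx2, Gpx3, Gsta3 and Ces1d lay under the intensity filter in the cells and were tested only through their level in lung, so a lower call for them was close to fixed by the filter. In whole lung, fewer cells of a type and less RNA per cell cannot be told apart.

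**Figure D1:**
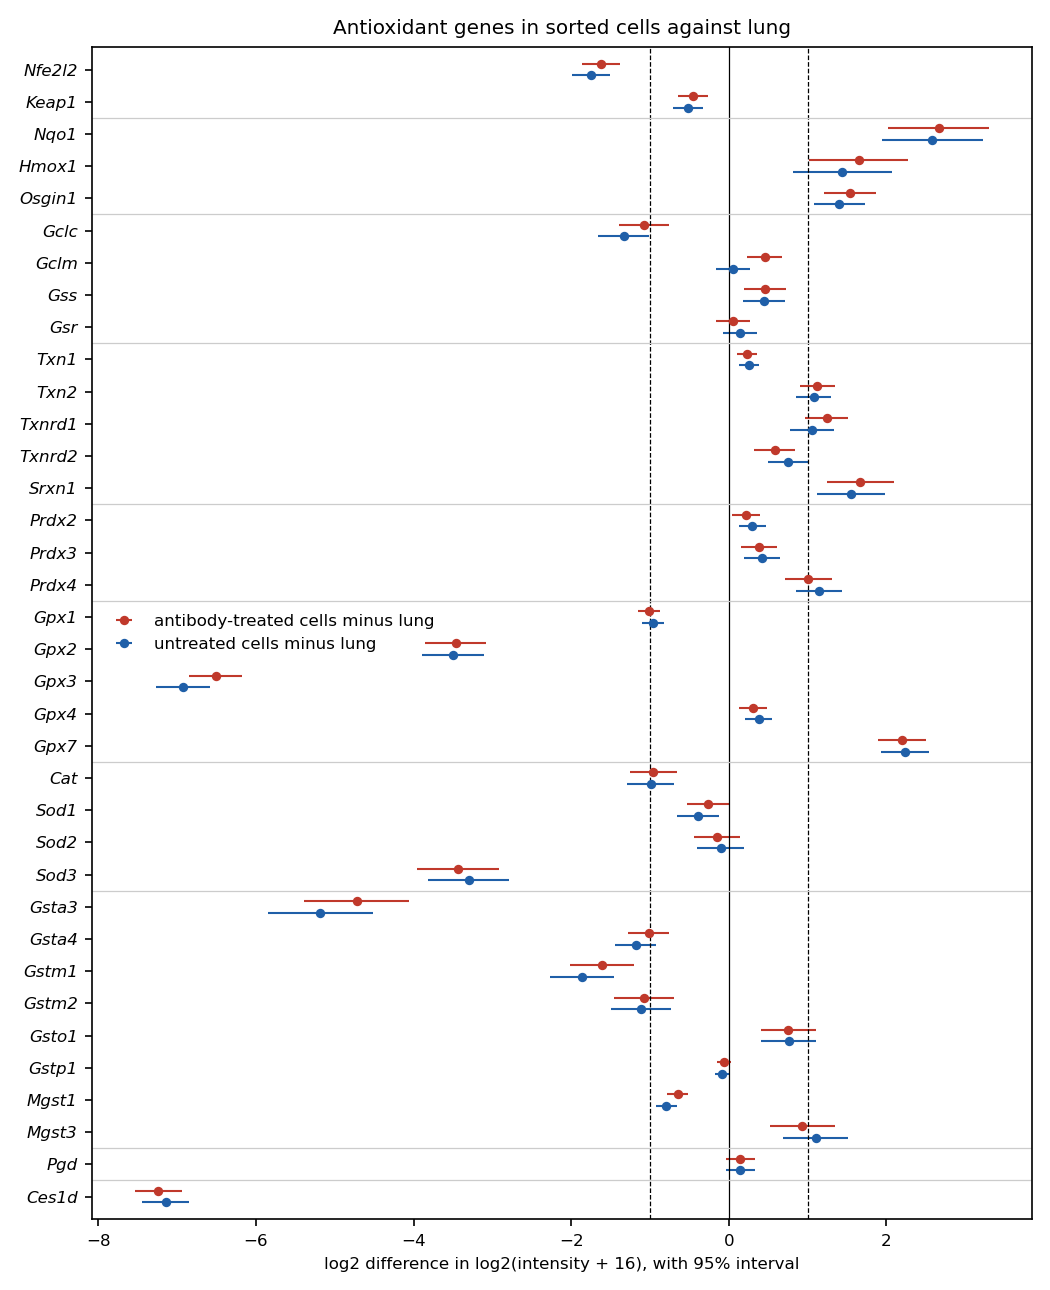
Log2 difference from lung (x axis, in log2(intensity + 16)) for the 36 measured members, ordered by role with grey lines between roles; red points are antibody-treated cells and blue points untreated cells, bars are 95% intervals of the limma model, and dashed lines mark 2-fold. Nqo1 (2.66 and 2.58) and Gpx7 (2.20 and 2.24) lie farthest to the right, and Ces1d (-7.24 and -7.15) and Gpx3 (-6.51 and -6.93) farthest to the left.

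The regulators came first. Nfe2l2 read 1005, 858 and 569 in antibody-treated cells and 969, 583 and 677 in untreated cells, against 2115, 2426 and 3153 in lung. Every cell sample lay below every lung on this probe set. Set against lung, antibody-treated cells differed by -1.62 ± 0.12 and untreated cells by -1.75 ± 0.12 on the log2 scale (adjusted p = 6.4e-12 and 1.52e-12). The fall was 3.08-fold and 3.36-fold. The other Nfe2l2 probe set went the other way, averaging 169 in antibody-treated and 170.1 in untreated cells and 15.2 in lung, with log2 differences of 2.78 and 2.74, so no direction can be given for the gene. Keap1, which encodes the adaptor that marks NRF2 for degradation, read 389.6, 304 and 454 in antibody-treated cells and 331, 359.9 and 389 in untreated cells, against 417, 575 and 677 in lung. Its differences of -0.45 ± 0.09 and -0.52 ± 0.09 were past the adjusted p threshold and short of 2-fold, and its second probe set ran the other way (0.73 and 0.37).

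Nqo1, Hmox1 and Osgin1 were called higher in both cell groups, where 18.9% of all genes in antibody-treated and 19.6% in untreated cells were, and this count was the same without normalization and with median centring. Other members known as NRF2 targets, described further on, did not all go this way: Srxn1 and Txnrd1 were higher, Gclm was short of the call, and Gclc, Gstm1, Gsta3 and Gpx2 were lower on the probe sets used. Nqo1, a quinone reductase, read 592, 342 and 564 in antibody-treated cells and 362, 428 and 623 in untreated cells, against 21.4, 69.9 and 206 in lung. No cell sample overlapped the lungs. On the log2 scale this made 2.66 ± 0.31 for antibody-treated and 2.58 ± 0.31 for untreated cells (adjusted p = 3.08e-08 and 5.09e-08). That is 6.33-fold and 5.99-fold higher. The lungs themselves spread widely for Nqo1, whose SD of 0.75 on the log2 scale was wider than that of 99.1% of all genes tested.

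Hmox1, the inducible enzyme of heme breakdown, read 775, 759 and 799.8 in antibody-treated cells and 1283, 657 and 359.9 in untreated cells, against 79.6, 251 and 480.1 in lung. The antibody-treated samples lay close together and above every lung, while the untreated samples ran from above all lungs to inside their range. Relative to lung the change was 1.65 ± 0.30 (log2, adjusted p = 2.66e-05) with antibody and 1.44 ± 0.30 (adjusted p = 0.000132) without. Its SD was 0.69 among lungs and 0.56 within the cell groups, and 98.9% and 97.4% of tested genes varied less. Osgin1, an oxidative stress response gene, read 527, 681 and 484 in antibody-treated cells and 691, 390.5 and 493 in untreated cells, against 135, 197 and 311 in lung, with no overlap. Antibody-treated minus lung came to 1.53 ± 0.16 and untreated minus lung to 1.40 ± 0.16 (log2, adjusted p = 3.58e-09 and 1.67e-08).

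**Figure D2:**
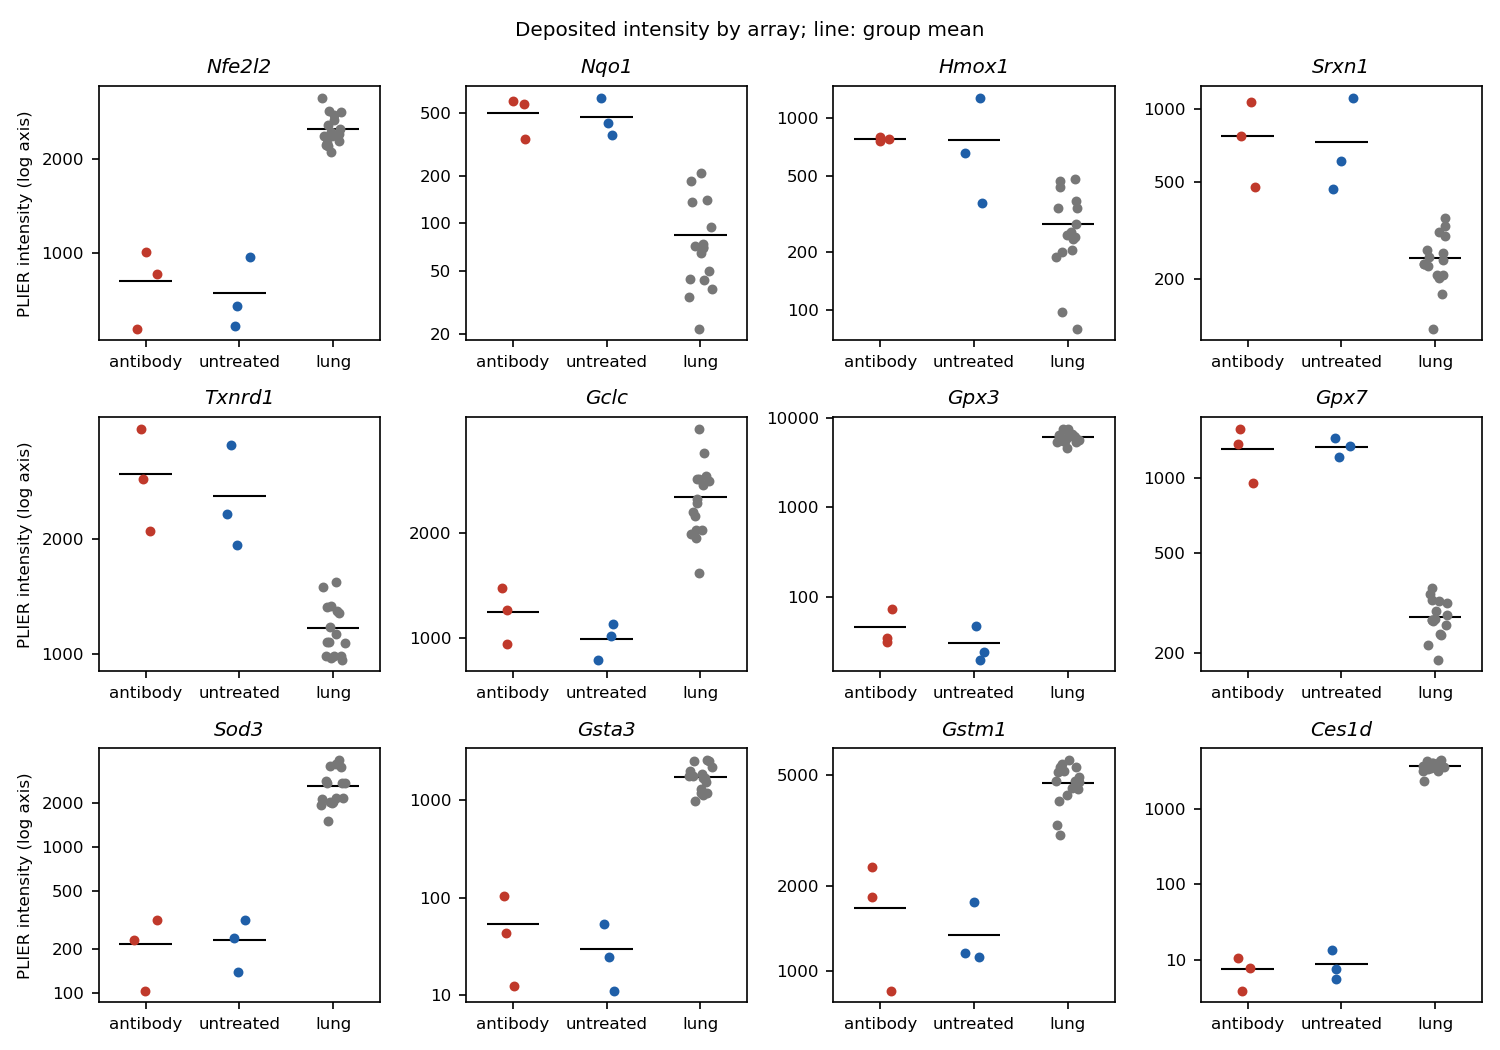
Deposited PLIER intensity (y axis, log scale, a separate range for each gene) of 12 members on every array, for antibody-treated cells (red, 3 arrays), untreated cells (blue, 3 arrays) and lung (grey, 16 arrays); points are spread sideways for legibility and the line is the group mean. The antibody-treated and untreated points of each gene overlap, and Hmox1 is the gene shown whose untreated cells reach into the lung range.

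Thioredoxin genes were level or higher, and none of the 5 was lower. Of all genes, 25.6% were lower in antibody-treated and 25.4% in untreated cells. Srxn1, whose product sulfiredoxin repairs over-oxidized peroxiredoxins, read 778, 1075 and 480.2 in antibody-treated cells and 1118, 468 and 614 in untreated cells, against 124, 234 and 356 in lung. All 6 cell samples lay above the lungs, and they differed among themselves more than those of most genes, with an SD of 0.55 that exceeded that of 97.3% of genes tested. The log2 difference from lung was 1.67 ± 0.21 for antibody-treated cells and 1.55 ± 0.21 for untreated cells (adjusted p = 8.7e-08 and 2.83e-07). Its 3 other probe sets were also higher, by 0.80 to 1.74 in antibody-treated and 0.95 to 1.74 in untreated cells.

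Txnrd1, the cytosolic thioredoxin reductase and a selenoprotein, read 2866, 3889.7 and 2093 in antibody-treated cells and 3519.8, 1934 and 2324 in untreated cells, against 965, 1102 and 1543 in lung. Again no cell sample overlapped the lungs. Set against lung, antibody-treated cells differed by 1.24 ± 0.13 and untreated cells by 1.06 ± 0.13 on the log2 scale (adjusted p = 7.68e-09 and 1.12e-07). Leaving out untreated replicate 1 took the untreated difference to 0.85, and array weights took it to 0.97, both short of 2-fold. Txn2, the mitochondrial thioredoxin, read 938, 904 and 1209 in antibody-treated cells and 1278, 866 and 855 in untreated cells, against 377, 466 and 535 in lung. On the log2 scale this made 1.12 ± 0.11 for antibody-treated and 1.08 ± 0.11 for untreated cells (adjusted p = 9.43e-10 and 2.04e-09). Without untreated replicate 1 its untreated difference was 0.93.

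The cytosolic thioredoxin Txn1 and the mitochondrial reductase Txnrd2 moved by less than 2-fold. Txn1 read 7641, 6026 and 6840.0 in antibody-treated cells and 5963, 6714 and 7568 in untreated cells, against 4596, 5069 and 5843 in lung, a difference of 0.23 ± 0.06 and 0.25 ± 0.06. Txnrd2 read 81.5, 74.8 and 82.5 in antibody-treated cells and 68.3, 117 and 94.2 in untreated cells, against 47.0, 63.8 and 80.0 in lung, a difference of 0.58 ± 0.13 and 0.76 ± 0.13. On 2 other Txnrd2 probe sets the difference was 0.99 and 1.09 in antibody-treated and 1.05 and 1.01 in untreated cells, so Txnrd2 lies at the border of the call.

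NRF2 acts through the antioxidant response element, searched here as TGACNNNGC and in its looser form TGANNNNGC, on both strands and with overlapping matches allowed. The window was the 300 bases from 250 before to 50 after each RefSeq start on GRCm38.p6, and 33 of the 40 members had at least 1 window. The stricter form stood in 10 of these 33 genes (30.3%) and in 13.99% of all 27018 genes with a window. The looser form, which contains the stricter, stood in 16 of the 33 (48.5%) and in 45.05% of all genes. Windows of Nfe2l2, Gclm, Txnrd1, Srxn1, Prdx1, Sod1, Gsta3, Mgst1, G6pdx and Pgd held the stricter form. Of the members called in untreated cells that have a window, 2 of 8 higher and 2 of 6 lower genes held it. Hmox1, Gclc, Gsr, Prdx6, Sod3, Gsta4 and Ces1d had no window.

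The windows of 4 of these genes are shown because their members did different things: Srxn1 and Txnrd1 were higher in the cells, Gclm was level in untreated cells, and Nfe2l2 is the gene of the factor itself. Each runs 5′ to 3′ along the gene's strand, with the stricter form in capitals.
Srxn1 (chr2:152105274-152105573, plus strand): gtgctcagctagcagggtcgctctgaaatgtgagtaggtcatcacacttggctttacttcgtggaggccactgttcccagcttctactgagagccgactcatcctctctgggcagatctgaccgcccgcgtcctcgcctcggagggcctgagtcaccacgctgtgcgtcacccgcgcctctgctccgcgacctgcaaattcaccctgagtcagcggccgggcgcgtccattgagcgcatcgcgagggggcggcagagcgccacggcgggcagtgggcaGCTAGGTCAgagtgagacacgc
Txnrd1 (chr10:82858956-82859255, plus strand): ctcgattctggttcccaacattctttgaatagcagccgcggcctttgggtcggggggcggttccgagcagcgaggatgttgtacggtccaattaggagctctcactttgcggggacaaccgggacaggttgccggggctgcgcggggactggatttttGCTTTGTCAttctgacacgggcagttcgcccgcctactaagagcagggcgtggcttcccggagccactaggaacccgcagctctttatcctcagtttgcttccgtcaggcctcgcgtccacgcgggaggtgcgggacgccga
Gclm (chr3:122245307-122245606, plus strand): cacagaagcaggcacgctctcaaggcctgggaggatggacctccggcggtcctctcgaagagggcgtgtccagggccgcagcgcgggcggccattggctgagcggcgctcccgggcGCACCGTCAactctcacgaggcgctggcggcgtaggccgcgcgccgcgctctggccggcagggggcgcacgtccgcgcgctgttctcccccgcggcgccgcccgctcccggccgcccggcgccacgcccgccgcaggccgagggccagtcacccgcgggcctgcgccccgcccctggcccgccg
Nfe2l2 (chr2:75704614-75704913, minus strand): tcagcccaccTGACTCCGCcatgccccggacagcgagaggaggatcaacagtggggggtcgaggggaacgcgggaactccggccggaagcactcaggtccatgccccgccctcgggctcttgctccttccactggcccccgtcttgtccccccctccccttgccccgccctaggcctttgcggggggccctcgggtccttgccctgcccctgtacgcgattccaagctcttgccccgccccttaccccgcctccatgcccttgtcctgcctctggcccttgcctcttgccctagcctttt
The match starts at base 279 of the Srxn1 window, just past the start, at base 159 for Txnrd1, at base 117 for Gclm and at base 11 for Nfe2l2. These are matches of letters, and no binding was measured. The window of Nqo1 held neither form. The Srxn1 window held the looser form 4 times, the marked match included. Txnrd1 has other windows, not shown, that held no stricter form.

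The glutathione synthesis genes split. Gclc, the catalytic subunit of glutamate-cysteine ligase and the rate-limiting enzyme, read 1205, 1395 and 963 in antibody-treated cells and 1098, 1016 and 866 in untreated cells, against 1535, 2463 and 3982 in lung. Every cell sample lay below every lung. Relative to lung the change was -1.08 ± 0.15 (log2, adjusted p = 8.37e-07) with antibody and -1.34 ± 0.15 (adjusted p = 2.68e-08) without. The antibody-treated call was lost with median centring (-0.79), with the mean of the probe sets (-0.80) and without antibody-treated replicate 3 (-0.93), and the second Gclc probe set was lower by less than 2-fold (-0.52 and -0.71).

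Gclm, the modifier subunit of the same enzyme, read 496, 399 and 452 in antibody-treated cells and 446, 292 and 277 in untreated cells, against 264, 339.6 and 473 in lung. Untreated cells overlapped the lungs, at 0.05 ± 0.11 (adjusted p = 0.644), and antibody-treated cells lay above every lung after normalization, though not in the deposited values, at 0.45 ± 0.11 (adjusted p = 0.000417), short of 2-fold. Gss, glutathione synthetase, differed by 0.46 ± 0.13 and 0.45 ± 0.13, and Gsr, which reduces oxidized glutathione, by 0.05 ± 0.10 and 0.14 ± 0.10 (adjusted p = 0.632 and 0.2). A second Gss probe set, prone to cross-hybridization, was higher by 1.09 in antibody-treated and 0.92 in untreated cells.

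Of the peroxiredoxins, which reduce peroxides with electrons from thioredoxin, 3 of 6 were measured. Prdx4, the form of the endoplasmic reticulum, read 2034, 1636 and 2473 in antibody-treated cells and 1994, 2547 and 2264 in untreated cells, against 806, 973 and 1426 in lung. No cell sample overlapped the lungs. Antibody-treated minus lung came to 1.01 ± 0.14 and untreated minus lung to 1.14 ± 0.14 (log2, adjusted p = 6.83e-07 and 9.87e-08). The antibody-treated value sat at the border, and fell short of 2-fold in 5 of 17 alternatives, with 0.998 without replicate 1 and 0.89 without replicate 3 as the highest and lowest of these, while 2 further probe sets gave 1.41 and 1.88 in antibody-treated and 1.35 and 1.79 in untreated cells. The cytosolic Prdx2 differed by 0.22 ± 0.08 and 0.30 ± 0.08, and the mitochondrial Prdx3 by 0.38 ± 0.11 and 0.42 ± 0.11. Both reached the adjusted p threshold and neither 2-fold.

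The glutathione peroxidases diverged most. Gpx3, the secreted plasma form, read 74.0, 31.5 and 35.5 in antibody-treated cells and 20.2, 48.3 and 24.8 in untreated cells, against 4559.9, 6042 and 7546 in lung. The lowest lung stood far above the highest cell sample. The log2 difference from lung was -6.51 ± 0.16 for antibody-treated cells and -6.93 ± 0.16 for untreated cells (adjusted p = 8.99e-21 and 2.61e-21). In cells it lay under the intensity filter, so the size depends on the added 16. With 1 added it was -6.89 and -7.45, and with 64 added -5.74 and -5.98. Gpx2, the epithelial form best known from the gut, read 18.8, 14.2 and 14.9 in antibody-treated cells and 12.1, 16.3 and 18.4 in untreated cells, against 206, 361 and 699.6 in lung. Set against lung, antibody-treated cells differed by -3.47 ± 0.19 and untreated cells by -3.50 ± 0.19 on the log2 scale (adjusted p = 3.07e-14 and 2.54e-14). It too lay under the filter in cells, and the difference was -4.23 and -4.28 with 1 added and -2.39 and -2.41 with 64.

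Gpx7, a peroxidase of the endoplasmic reticulum that works with protein disulfide isomerase, was the opposite case. It read 1379.7, 961 and 1585 in antibody-treated cells and 1219.7, 1448 and 1349 in untreated cells, against 187, 272 and 364 in lung. All cell samples lay above all lungs. On the log2 scale this made 2.20 ± 0.15 for antibody-treated and 2.24 ± 0.15 for untreated cells (adjusted p = 1.56e-12 and 1.1e-12). That is 4.58-fold and 4.71-fold higher.

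Gpx1, the abundant cytosolic selenoenzyme, read 2667, 2159.8 and 2681 in antibody-treated cells and 2858, 2533 and 2526 in untreated cells, against 4389, 4754 and 6080.0 in lung. No cell sample overlapped the lungs, and the difference fell on either side of 2-fold. Relative to lung the change was -1.02 ± 0.07 (log2, adjusted p = 8.63e-13) with antibody and -0.96 ± 0.07 (adjusted p = 2.31e-12) without. The antibody-treated call was lost in 6 of 17 alternatives, among them median centring (-0.68), array weights (-0.92), no normalization (-0.96), leaving out replicate 2 of that group (-0.93) and leaving out the lung arrays male 3 and male 4 (-0.999). Gpx4, which reduces lipid hydroperoxides in membranes and guards against ferroptosis, read 5951, 3917 and 5552 in antibody-treated cells and 5535, 5141 and 4899 in untreated cells, against 3312, 3746 and 4398 in lung. It was higher by 0.31 ± 0.08 and 0.38 ± 0.08, short of 2-fold.

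Among enzymes of superoxide and hydrogen peroxide, the extracellular form was the one that was called. Sod3 read 232, 103 and 318 in antibody-treated cells and 238, 317 and 139 in untreated cells, against 1510.3, 2459 and 3988 in lung. Every lung exceeded every cell sample. Antibody-treated minus lung came to -3.44 ± 0.25 and untreated minus lung to -3.30 ± 0.25 (log2, adjusted p = 6.21e-12 and 1.3e-11). A second Sod3 probe set was lower (-2.02 and -2.05). The level was 10.8-fold and 9.87-fold lower on the first.

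Sod2, the mitochondrial manganese enzyme, read 1365, 1439.5 and 1158 in antibody-treated cells and 1536, 1363 and 1281 in untreated cells, against 826, 1474 and 1824 in lung. The groups overlapped, the sign turned with median centring (0.15 and 0.22), and the differences of -0.15 ± 0.14 and -0.10 ± 0.14 did not pass (adjusted p = 0.323 and 0.496). One of its 3 further probe sets went past 2-fold the other way, with means of 49.2 in antibody-treated and 53.0 in untreated cells and 22.2 in lung (log2 differences 1.05 and 1.14). Sod1, the cytosolic copper and zinc enzyme, read 3593, 3067 and 3023 in antibody-treated cells and 3049.8, 2847 and 3005 in untreated cells, against 2554, 3665 and 4694 in lung. Its differences were -0.26 ± 0.13 (adjusted p = 0.0662) and -0.39 ± 0.13 (adjusted p = 0.00803). On 3 of its 4 further probe sets the sign was the other in both groups, by 0.10 to 0.32. The remaining, fainter set was lower (-0.75 and -1.24), past 2-fold in untreated cells. With median centring the antibody-treated difference on the main probe set also changed sign (0.10).

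Cat, the peroxisomal catalase, read 1506, 1427 and 1092 in antibody-treated cells and 1038, 1321 and 1669 in untreated cells, against 1951, 2541 and 3435 in lung. No cell sample overlapped the lungs, yet the change stopped just short of 2-fold. The log2 difference from lung was -0.96 ± 0.14 for antibody-treated cells and -0.99 ± 0.14 for untreated cells (adjusted p = 1.73e-06 and 1.02e-06). It passed 2-fold without antibody-treated replicate 1 or 2 (-1.05 and -1.02) and without untreated replicate 2 or 3 (-1.01 and -1.16). The second Cat probe set was called lower in both groups (-1.39 and -1.35).

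The glutathione transferases, which join glutathione to electrophiles, were lower in 4 of 8 cases in each cell group. That is 50%, beside 25.6% of all genes in antibody-treated and 25.4% in untreated cells. The 4 include Gsta3, which was tested only through its level in lung, so its lower call was close to fixed. With median centring 2 of the 8 were lower and 2 higher in each group. Gsta3, an alpha class enzyme, read 104, 43.4 and 12.3 in antibody-treated cells and 53.2, 10.9 and 24.6 in untreated cells, against 976, 1734 and 2631 in lung. The cell values scattered at low intensity, and the lungs lay far above. Set against lung, antibody-treated cells differed by -4.72 ± 0.32 and untreated cells by -5.19 ± 0.32 on the log2 scale (adjusted p = 2.07e-12 and 3.41e-13). In cells it lay under the intensity filter, and over 17 alternatives the difference ran between -5.24 and -3.90 in antibody-treated and between -5.83 and -4.18 in untreated cells. Gstm1, a mu class enzyme, read 1839, 849.9 and 2342 in antibody-treated cells and 1759, 1162 and 1119 in untreated cells, against 3063, 4738 and 5663 in lung. Every cell sample lay below every lung. On the log2 scale this made -1.61 ± 0.20 for antibody-treated and -1.87 ± 0.20 for untreated cells (adjusted p = 7.2e-08 and 5.83e-09). The 3 further Gstm1 probe sets disagreed in size, with 0.24, -0.74 and -1.50 in antibody-treated and -0.16, -1.06 and -1.70 in untreated cells, and such sets can share signal between close relatives of the family.

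Gsta4, which clears the lipid aldehyde 4-hydroxynonenal, read 1073, 721 and 928 in antibody-treated cells and 1079, 626 and 779 in untreated cells, against 1315, 1857 and 2410.0 in lung. Its differences were -1.01 ± 0.13 and -1.18 ± 0.13. Gstm2 read 1492, 830.0 and 1716 in antibody-treated cells and 1392, 1283 and 1171 in untreated cells, against 1425, 2874 and 3315 in lung, with differences of -1.08 ± 0.18 and -1.11 ± 0.18. Both were called and both lay near 2-fold. With median centring neither was called (-0.75 and -0.90 for Gsta4, -0.77 and -0.78 for Gstm2), and without antibody-treated replicate 2 the values for that group were -0.88 for Gsta4 and -0.79 for Gstm2. In all, 7 of 17 alternatives ended the antibody-treated call of Gsta4 and 4 that of Gstm2, and 1 and 2 ended the untreated calls. Without the lung arrays male 3 and male 4, Gsta4 in antibody-treated cells stood at -0.98.

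Mgst3, a membrane-bound enzyme of this group, read 1802, 1213 and 2128 in antibody-treated cells and 1953, 1893 and 1926 in untreated cells, against 659.9, 822 and 1467 in lung. It was called higher in untreated cells (1.10 ± 0.20) and fell short of 2-fold in antibody-treated cells (0.93 ± 0.20), where it reached 1.15 without replicate 2. The untreated value lay at the border, and the call was lost with the replicate block (0.993) and with only lungs 1 to 4 (0.986). A second, fainter Mgst3 probe set was called higher in both groups (1.07 and 1.10). Mgst1, a relative of Mgst3, differed by -0.65 ± 0.06 and -0.79 ± 0.06, short of 2-fold. Gsto1, the omega class enzyme, was higher by 0.76 ± 0.17 and 0.76 ± 0.17 and passed 2-fold on its second probe set (1.23 and 1.13). Gstp1, the pi class enzyme, read 5587, 5505 and 5204 in antibody-treated cells and 5547, 4876 and 5131 in untreated cells, against 4802, 5132 and 5514 in lung. It differed by -0.06 ± 0.04 and -0.08 ± 0.04 and had the smallest spread of the members among lungs, an SD of 0.03. With median centring Gstp1 was higher by 0.35 and 0.28 instead.

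NADPH supply was represented by Pgd, the phosphogluconate dehydrogenase of the pentose phosphate pathway. It read 1309.6, 1006 and 1182 in antibody-treated cells and 1323, 1194 and 1036 in untreated cells, against 769.8, 1035 and 1287 in lung, and the groups overlapped at 0.15 ± 0.09 and 0.15 ± 0.09 (adjusted p = 0.131 and 0.135). Its 3 further probe sets, prone to cross-hybridization, gave 0.58 to 0.93 in antibody-treated and 0.46 to 0.92 in untreated cells. Ces1d, a carboxylesterase that splits lipid and drug esters, read 10.6, 7.78 and 3.86 in antibody-treated cells and 5.62, 7.60 and 13.5 in untreated cells, against 2342, 3651 and 4542 in lung. It had the largest difference of the 36 members. Relative to lung the change was -7.24 ± 0.14 (log2, adjusted p = 7.05e-23) with antibody and -7.15 ± 0.14 (adjusted p = 9.47e-23) without. The cell values were under the intensity filter, so the fold depends on the added 16. With 1 added instead, the differences were -8.64 and -8.40.

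Antibody treatment was compared with no treatment on the 6 cell arrays, to ask whether exposure to the EpCAM antibody shifted antioxidant genes. No member passed. Of the 36, 32 were tested, since Gpx2, Gpx3, Gsta3 and Ces1d lay under the intensity filter in cells, and 0 of 32 were called at an adjusted p of 0.05 (limma), beside 0.0181% of all 11064 genes. At an unadjusted p under 0.05 there was 1 member, Gclm, beside 54 among all genes. The median difference was 0.03 over the members and -0.02 over all genes. The 95% intervals of all 32 lay within 2-fold either way, as did those of 97.5% of all genes, and the widest ran from -0.94 for Sod3 at its low end to 0.99 for Gstm1 at its high end. Changes inside these intervals were not detectable with 3 arrays a group.

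Gclm had the largest difference, 0.40 ± 0.17 (SE, n = 3 each, adjusted p from limma = 1.00). Its antibody-treated values of 496, 399 and 452 overlapped the untreated values of 446, 292 and 277 through untreated replicate 1. Its partner Gclc differed by 0.26 ± 0.17, with 1205, 1395 and 963 in antibody-treated against 1098, 1016 and 866 in untreated cells. Nqo1 differed by 0.08 ± 0.24, Hmox1 by 0.21 ± 0.33 and Srxn1 by 0.12 ± 0.33, all smaller than their standard errors. Txnrd2 had the lowest value, -0.17 ± 0.17. Sod1 read 3593, 3067 and 3023 in antibody-treated and 3049.8, 2847 and 3005 in untreated cells. After normalization it was the member whose groups did not overlap, 1 of 32 beside 2.32% of all genes. Its difference of 0.13 ± 0.10 did not pass.

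**Figure D3:**
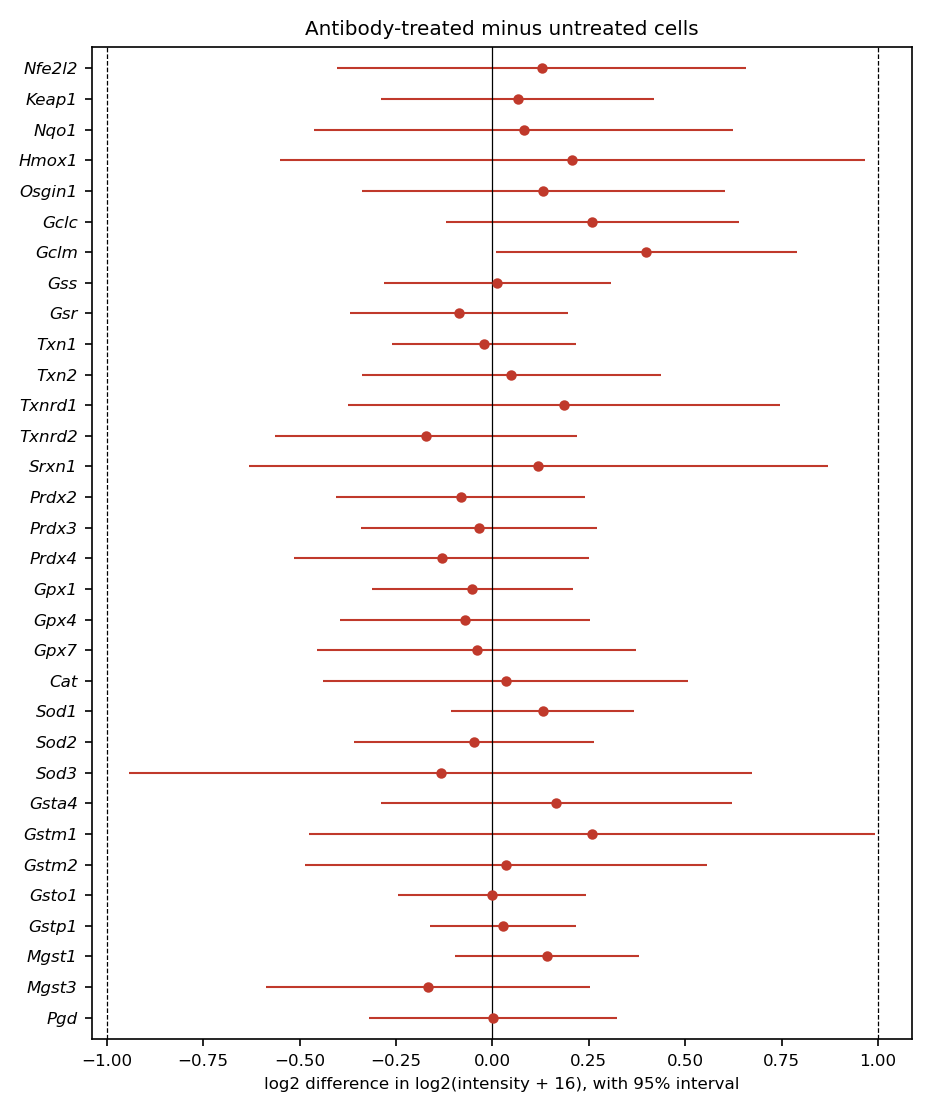
Log2 difference between antibody-treated and untreated cells (x axis, in log2(intensity + 16)) for the 32 members tested, with 95% intervals of the limma model; dashed lines mark 2-fold. Every interval lies inside the dashed lines, and Gclm (0.40) lies farthest from 0.

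Samples of 1 cell group also differed among themselves. The patterns that follow were picked after the values were seen and carry no test. Srxn1, Txnrd1 and Osgin1 were highest on untreated replicate 1 and antibody-treated replicate 2, and lowest on untreated replicate 2 and antibody-treated replicate 3. Deviations from the group mean over 11064 genes ran the same way. They correlated at 0.24 between untreated replicate 1 and antibody-treated replicate 2. Between untreated replicate 2 and antibody-treated replicate 3 they correlated at 0.28, so the pattern is not particular to these members. On antibody-treated replicate 2 against replicate 3, Txnrd1 read 3889.7 and 2093, and on untreated replicate 1 against replicate 2 it read 3519.8 and 1934. Sod3, Gstm1, Gstm2 and Mgst3 were at their lowest on antibody-treated replicate 2, where 13 of the 36 members had their lowest value of the 6 arrays. The 36 include Gpx2, Gpx3, Gsta3 and Ces1d, which lay under the filter in cells. The same count was not made over all genes, so a trait of the members and of that array cannot be told apart. On that array the log2 ratio of the 3′ to the 5′ Actb probe set, a measure of RNA integrity, was 1.21, against 0.22 to 0.86 on the other 5, and its part in these values was not tested. Over the members, the median SD within cell groups was 0.22 on the log2 scale, beside 0.19 over all genes tested.

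**Figure D4:**
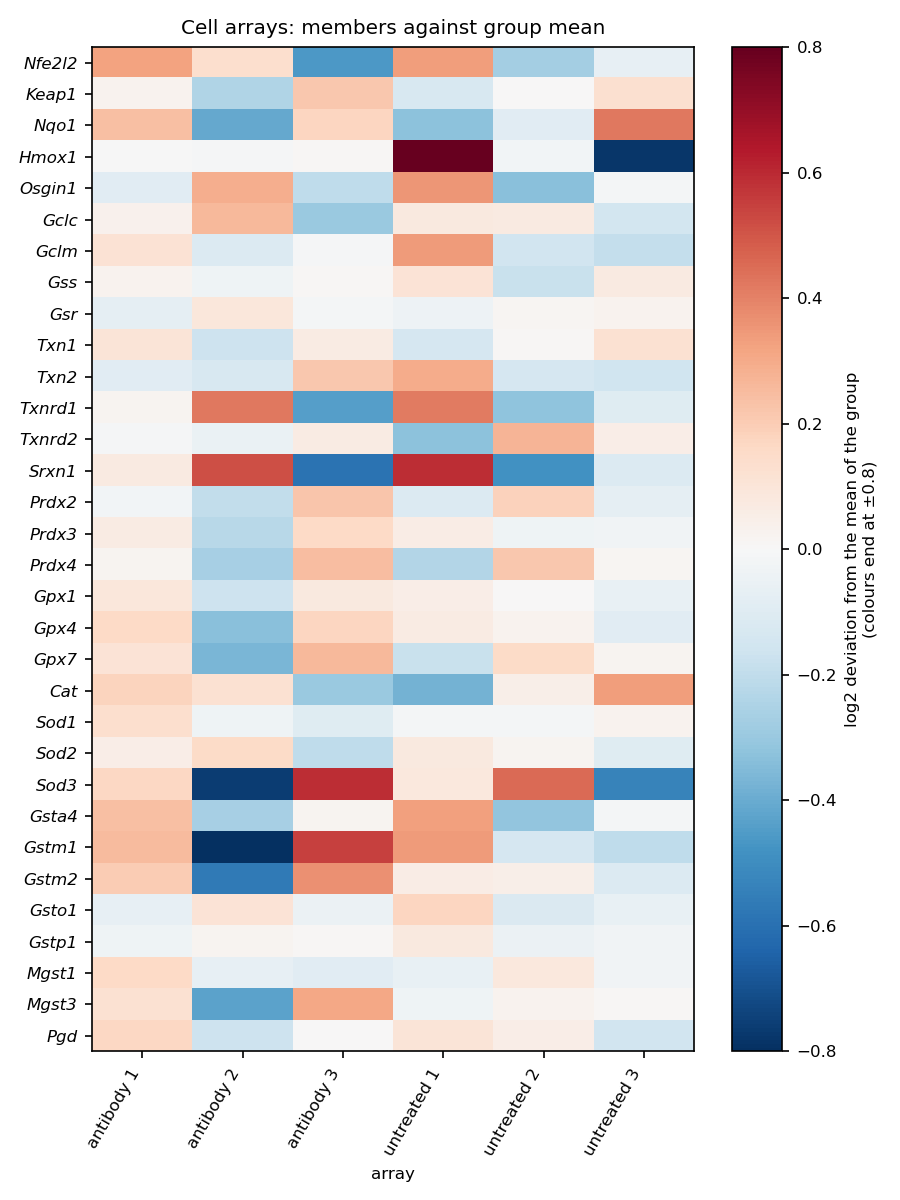
Log2 deviation of each cell array (x axis) from the mean of its own group for the 32 tested members (y axis, ordered by role); red is above and blue below the group mean, and colours end at 0.8 either way. Srxn1 and Txnrd1 are high on antibody-treated replicate 2 and untreated replicate 1, and Sod3, Gstm1 and Gstm2 are low on antibody-treated replicate 2.

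Among the lungs the members' median SD was 0.23, beside 0.20 over all genes tested. Nqo1 and Hmox1 varied most, followed by Gpx2 (0.47), Gsta3 (0.42), Mgst3 (0.39) and Sod3 (0.39), and Gstp1 (0.03) and Txn1 (0.07) least. The array labelled male 4 had the highest value of the 16 for 13 of the 36 members, Hmox1, Gclc and Txnrd1 among them, and the lowest for 6, which were Gpx3, Sod3, Gsta3, Gstm1, Gstm2 and Ces1d. Its correlation with the other lungs was the lowest of the 16, at 0.963, with the next lowest at 0.974. The same counts were not made over all genes, so a trait of the members and of the array cannot be told apart. Gstm1 read 3310.3 and 3063 on male 3 and male 4, with the next lowest lung at 4035. Gsta3 read 1124 and 976 there, and Gstm2 1643 and 1425.

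Other genes of these pathways, listed by function, were counted in the same fits. In antibody-treated cells 24 of 91 tested were higher and 26 lower than lung (26.4% and 28.6%, beside 18.9% and 25.6% of all genes), and in untreated cells 25 of 92 were higher and 25 lower (27.2% each, beside 19.6% and 25.4%). Between antibody-treated and untreated cells, 0 of 80 were called. The rest lay under the filter among the cell arrays, so a lower call against lung was close to fixed for them.

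Of 10 genes of cystine uptake and glutathione turnover, 6 were higher and 3 lower in each cell group. These are 60% and 30%, beside 18.9% and 25.6% of all genes in antibody-treated and 19.6% and 25.4% in untreated cells. Their median was 1.40 in antibody-treated and 1.33 in untreated cells. Of the 10, 8 passed the filter among the cell arrays. Slc7a11, the cystine transporter that supplies cysteine for glutathione, averaged 4747 ± 1806 in antibody-treated and 4271 ± 1627 in untreated cells (SD, n = 3 each), and 627 ± 74.6 in lung (SD, n = 16). It was higher by 2.73 ± 0.17 and 2.64 ± 0.17. Chac2 (2.30 and 2.24) and Chac1 (2.04 and 2.17), which break glutathione down in the cytosol, were also higher. The peptidase gene Anpep was lower (-3.67 and -3.47). It lay under the filter among the cell arrays, so its lower call, part of the 30%, was close to fixed.

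Of 11 listed genes for enzymes that make oxidants, 6 were tested and all 6 were lower in both cell groups, beside 25.6% and 25.4% of all genes. Of these, Xdh (xanthine dehydrogenase) also passed the filter among the cell arrays, at -2.18 and -2.28. The others passed only through lung, where they are high, so that their direction was close to fixed and the count supports nothing. The NADPH oxidase subunit genes Cyba (-7.25 and -7.20), Cybb (-5.48 and -6.02) and Ncf1 (-3.54 and -3.42) belong to the phagocyte enzyme, and the macrophage and neutrophil markers were lower in the cells as well. Summed macrophage markers read 453 to 673 in antibody-treated and 478 to 741 in untreated cells, against 3818 to 6174 in lung, and their part in these values was not tested. Nox4, a NADPH oxidase of non-phagocytic cells, was lower (-5.02 and -5.27).

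Partners of NRF2 went both ways, 2 higher and 2 lower of 8 in each cell group. These are 25% each, beside 18.9% and 25.6% of all genes in antibody-treated and 19.6% and 25.4% in untreated cells. Of the 8, 7 passed the filter among the cell arrays. The small MAF genes Mafg (2.31 and 2.14) and Maff (1.94 and 1.77), whose products pair with NRF2 on DNA, were higher. Bach2 (-3.08 and -3.23) and Bach1 (-1.25 and -1.35), which encode repressors that compete for the same element, were lower. Further detoxification and iron genes were higher in 5 of 15 cases in antibody-treated and 7 of 16 in untreated cells (33.3% and 43.8%, beside 18.9% and 19.6% of all genes), with 1 lower in each (6.67% and 6.25%, beside 25.6% and 25.4%). The exporter genes Abcc4 (2.77 and 2.40) and Abcc1 (1.90 and 1.86) and Ugdh (1.88 and 1.93) were higher, and the carbonyl reductase gene Cbr1 (-2.23 and -2.05) was lower.

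Other peroxidases and transferases were 5 higher and 5 lower of 15 in antibody-treated and 4 and 5 in untreated cells. In antibody-treated cells that is 33.3% each, beside 18.9% higher and 25.6% lower of all genes. In untreated cells it is 26.7% and 33.3%, beside 19.6% and 25.4%. Of the 15, 12 passed the filter among the cell arrays. Gstt2 (-3.53 and -3.68) and Gsta2 (-2.00 and -2.50) were lower. Both lay under the filter among the cell arrays, so their lower calls were close to fixed. Gsto2 (2.07 and 2.13) and Gstm5 (1.56 and 1.66) were higher. Of 14 other thioredoxin-fold and repair genes, 3 were higher in each group and 4 and 3 were lower. These are 21.4% higher in each, and 28.6% and 21.4% lower, near the shares of all genes just given. Txnip, whose product binds and inhibits thioredoxin, was lower (-2.33 and -2.28), as was the methionine sulfoxide reductase gene Msrb1 (-1.56 and -1.53). Sesn3 (1.45 and 1.64) and Nxn (1.61 and 1.58) were higher.

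Of 10 other NADPH genes, 1 was higher and 1 lower in each cell group, and 8 were not called. These are 10% each, beside 18.9% and 25.6% of all genes in antibody-treated and 19.6% and 25.4% in untreated cells. The mitochondrial folate enzyme gene Mthfd2 was higher (3.03 and 3.03) and malic enzyme Me1 lower (-1.02 and -1.01). Of 9 genes of selenoprotein supply, 1 was higher and 3 lower in each cell group. These are 11.1% and 33.3%, beside 18.9% and 25.6% of all genes in antibody-treated and 19.6% and 25.4% in untreated cells. Selenow (-3.51 and -3.43), Sephs2, which makes the selenium donor (-2.18 and -2.22), and Selenop, the selenium carrier of plasma (-1.18 and -1.19), were lower, and Pstk (1.21 and 1.27), which primes the selenocysteine tRNA, was higher. Of 4 other carboxylesterases tested, 1 was higher and 1 lower in each cell group, 25% each beside the shares of all genes just given. Ces1g was higher (1.86 and 1.89) and Ces1e lower (-2.38 and -2.33). Of these 4, 3 passed the filter among the cell arrays. Ces1e did not, so its lower call was close to fixed.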

How the data were processed

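Transcript levels were measured on 22 mouse arrays of 45101 probe sets. Each deposited value is a probe set intensity, not on a log scale, made with PLIER per the submitters' processing notes. How PLIER was set, in which version, and whether arrays were scaled is not given in the sources used here. Symbols come from the platform annotation, in which 34945 probe sets list 1 gene, 932 several and 9160 none. The members and lists were chosen with earlier results of these data known.

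From the intensities, 1 probe set a gene was kept as described above, 16 was added, log2 was taken and the 22 arrays were quantile normalized. Testing required a value over the array's 40th percentile of genes on 3 or more of the arrays compared. The models were those of limma 3.58.1 (R 4.3.3), and gene variances were moderated along a trend with intensity. Lung comparisons used a fit of 4 groups, where the spread of each gene is shared and set mostly by the 16 lungs; male-labelled and female-labelled lung had equal weight. The comparison of the cell groups used the 6 cell arrays. The code was tested on simulated data. Alternatives changed the normalization (none, or median centring), the offset (1 or 64), the filter, the probe sets (averaged per gene, or each by itself), the variance trend, array weights, the replicate block and the arrays fitted, including leaving out single cell arrays.

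All 40 members are accounted for. Of each other list, up to 4 genes with the largest called difference in untreated cells are named, and other probe sets of a member that go the other way past 2-fold are named. The labels do not say whether replicate numbers shared by the cell groups pair the samples, and 3 arrays a group cannot decide it. The correlations of same-numbered deviations over 11064 genes were 0.07, -0.27 and 0.07. Higher ones joined other numbers, with 0.28 for antibody-treated 3 and untreated 2 and 0.24 for antibody-treated 2 and untreated 1. Figures were drawn with matplotlib 3.10.9.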

Additional observations from a re-analysis of the deposited data

Results flagged for a closer look

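Single lungs stood apart from the others of their labelled group in 4 of 72 checks over the members, by a gap wide for the group's whole range. Chance flags about 1 in 20 such checks. Gss read 111.353 on the array labelled male 2, where the next lowest was 195.911, and 135.481 on the array labelled female 3, where the next was 172.346. Sod2 read 825.888 on male 2, with the next lowest at 1401. Prdx2 read 2187 on female 6, with the next highest at 1997.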

How the results depend on the processing

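The number of members called was stable over most settings and depended on the 2-fold requirement: with the adjusted p alone it was 31 in antibody-treated and 31 in untreated cells, instead of 19 in each. Over the other settings it ran from 17 to 19 in antibody-treated and 17 to 20 in untreated cells, and it was 0 between the cell groups in all of them. Leaving out 1 cell array gave 17 to 19, 17 to 20 and 0. The direction reversed for Nfe2l2 with the mean of its probe sets (0.58 in antibody-treated and 0.50 in untreated cells) and on its other probe set (2.78 and 2.74), for Sod2 on 1 of its probe sets (1.05 and 1.14) and for Gstm1 on 1 of its probe sets in antibody-treated cells (0.24). Other sign changes, given above, included Keap1 on its second probe set and Sod1 on most of its further ones. With median centring Sod2 and Gstp1 changed sign in both cell groups, and Sod1 in antibody-treated cells. In those cells 7 of 8 higher and 5 of 11 lower calls held under all 17 alternatives that kept the fold requirement and the probe set rule or its mean, and in untreated cells 6 of 9 higher and 7 of 10 lower calls did. The calls that changed lay near 2-fold, apart from Nfe2l2 and Gstm1. Median centring left 7 lower calls in antibody-treated cells instead of 11. Scaling moved the median of all genes from 0.00 to -0.15 without normalization and to 0.13 with median centring in antibody-treated cells, and from 0.03 to -0.11 and 0.16 in untreated cells, and the higher share of called genes from 42.5% to 36.3% and 48.2%, and from 43.6% to 36.8% and 49.0%. With the replicate block the members called were 17, 20 and 0. With only lungs numbered 1 to 4, chosen after seeing the data, they were 17 and 19, and with only lungs 5 to 8 they were 19 and 19. Intensity carries no read depth. Faint members (Gpx2, Gpx3, Gsta3 and Ces1d in cells) were limited by the added offset. The causes of these changes were not tested.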
